A study of Mus musculus with 9 samples.

Results

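The libraries came from tdTomato-positive cells sorted out of the mouse hippocampus, and the comparison set all 6 injured libraries against the 3 libraries labelled sham. The sham group was labelled wild type and went through surgery without an impact. The injured groups were 3 wild-type libraries and 3 libraries from mice with a conditional knockout of Tmsb4x, all after a single mild controlled cortical impact (mild traumatic brain injury, mTBI). All mice carried a transgene for the red fluorescent protein tdTomato that the labels describe as neuronal. The labels give no age, sex, time after injury, Cre driver or deleted stretch of Tmsb4x, and they describe no knockout mice after a sham operation. By these labels, a difference between injured knockout and sham libraries therefore carries both the injury and the knockout. Their effects cannot be told apart there. The genes described changed in the mean of both injured groups and did so in every injured library. They numbered 62 of 20032 tested genes (0.31%), 33 higher and 29 lower.

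A cortical impact deforms the tissue below it. In neurons, injury of this kind is known to disturb ion balance and glutamate signalling, to load the cell with calcium and to strain the cytoskeleton. The hippocampus, which forms memories, lies under the impacted cortex and next to the lateral ventricle. There the choroid plexus, a secretory epithelium that makes cerebrospinal fluid, lies close to its surface, so that hippocampal dissections can carry some of it. Tmsb4x encodes thymosin beta 4, a peptide that binds actin monomers.

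Several facts of the libraries touch all results below. Tmsb4x, the deleted gene, stood at 2.73, 1.68 and 2.23 CPM (read counts relative to the library total, TMM-scaled) in the libraries labelled wild-type sham. It stood at 900, 553 and 297 CPM in wild-type mTBI and at 1.83, 2.79 and 2.77 CPM in knockout mTBI. The sham libraries thus lay at the level of the knockout and not of the injured wild type, which goes against their genotype label. If that label is wrong, the differences of wild-type mTBI and of the mean of both injured groups from sham also carry a genotype difference. Injury and genotype could then not be told apart in them. Every direction below is a direction from the libraries labelled sham. The labels state 3 mice per group, yet the sham libraries varied little: over 10325 genes of at least 10 CPM, the median SD of log2 CPM was 0.05 in sham, 0.15 in the injured wild type and 0.10 in the injured knockout. Pairs of sham libraries differed with 1.40 to 1.49 times the variance of counting noise, wild-type mTBI pairs with 9.10 to 33.6 times and knockout pairs with 10.6 to 19.8 times. Counting noise was taken at 2 counts per sequenced fragment. Ratios based on medians were smaller, at 1.23 to 1.28 in sham, 2.69 to 10.4 in wild-type mTBI and 2.87 to 5.33 in knockout mTBI. Whether the sham libraries came from 3 mice or from 1 pool was not settled by the counts, and if they did not come from separate mice, the p-values measure a partly technical spread. Totals were 36452443 to 39590872 counts per library. Summed over 8 markers of each type, neuronal transcripts took 9893 to 11256 CPM, oligodendrocyte transcripts 5178 to 9505 CPM and astrocyte transcripts 4098 to 5209 CPM, although the sort was on a neuronal reporter. In bulk RNA, fewer cells of a type and less RNA per cell cannot be told apart. Xist and Ddx3y gave a female pattern in 1 library, wild-type mTBI replicate 3, and a male pattern in the other 8.

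In the mean of both injured groups minus sham, 63 genes were called, 0.314% of the genes tested (edgeR's quasi-likelihood F test, Benjamini-Hochberg adjusted p under 0.05). Of these, 34 were higher (0.17%) and 29 lower (0.145%). For 33 of the higher genes (0.165%) and all 29 lower genes (0.145%), the 6 injured libraries also lay beyond all 3 sham libraries. Tmsb4x was the only called gene that failed this condition (log2 4.10, adjusted p = 0.0211), because the knockout libraries overlapped the sham libraries. Its paralog Tmsb10 was not called (log2 0.22, adjusted p = 0.538). Non-overlap alone was much more common: 730 genes had all injured libraries above sham (3.64%) and 799 below (3.99%), 7.63% in either direction. At an unadjusted p under 0.05 there were 2089 genes (10.4%). The numbers rested on single libraries. Leaving out any 1 sham library left 8 or 9 higher and 2 or 3 lower genes of the same direction, and with the sham libraries summed to 1 sample edgeR called 0 genes (387 at an unadjusted p under 0.05), while DESeq2 called 35 in that setting. Without wild-type mTBI replicate 1 there were 104 higher and 127 lower genes, without wild-type mTBI replicate 2 there were 48 and 70, and without knockout mTBI replicate 1 there were 202 and 45. Without knockout mTBI replicate 2 the numbers were 54 and 53, and without knockout mTBI replicate 3 they were 17 and 11. Leaving out wild-type mTBI replicate 3 changed the total little, with 62 genes called in either direction beside 63, although some genes, such as Gas6, lost their call. A set of 10 genes kept its call without each of the 9 libraries in turn: Epn3, Etnppl, Sfrp5, Pcp4l1, Otx2, Pla2g5, C920006O11Rik, 9430037G07Rik, Pura and Gm44846.

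**Figure D1:**
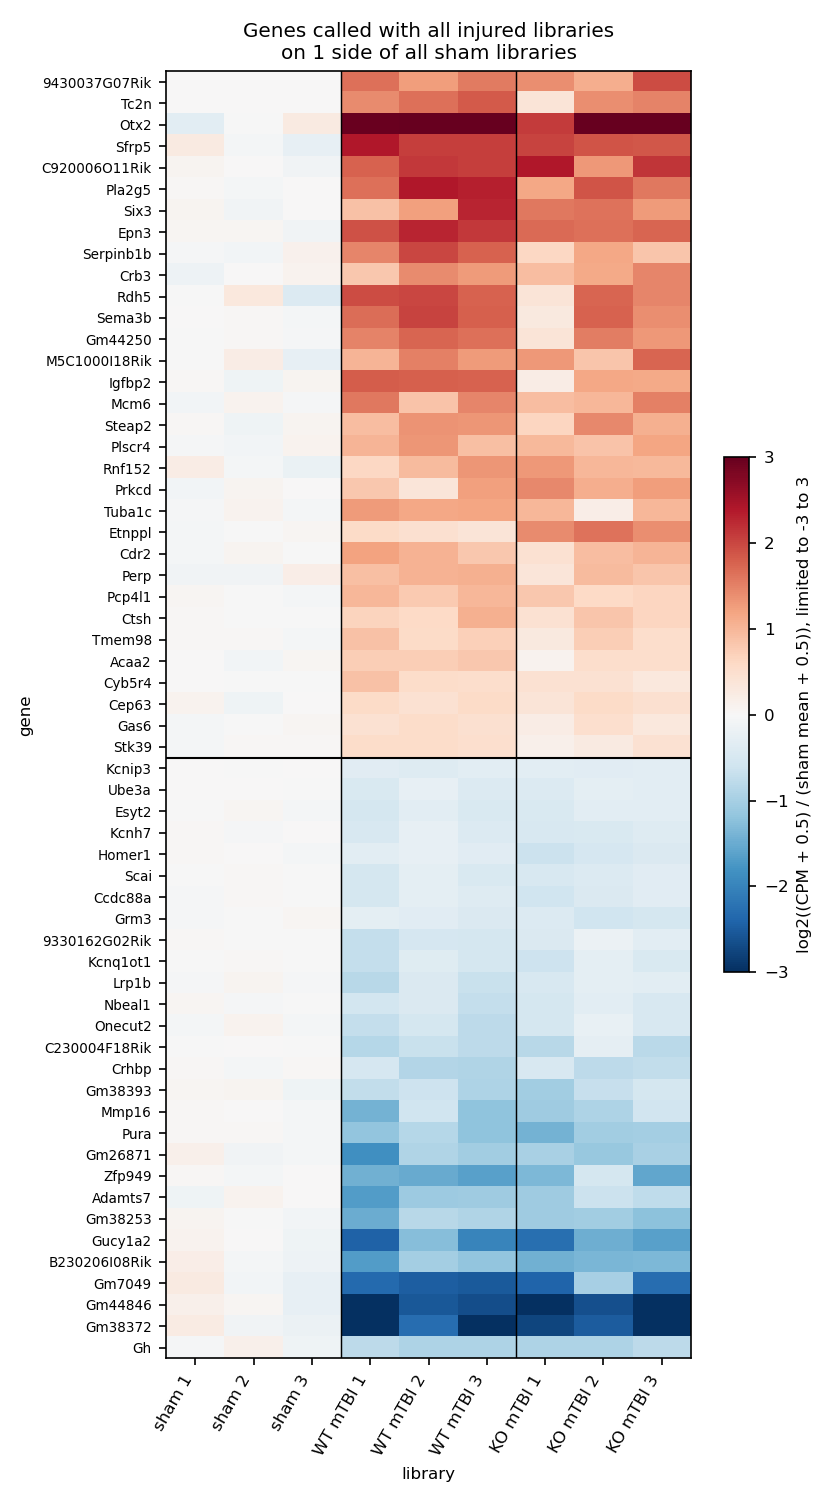
Rows are 60 of the 62 genes called in the mean of both injured groups with all injured libraries on 1 side of all sham libraries, and columns are the 9 libraries. Colour gives log2((CPM + 0.5)/(sham mean + 0.5)), limited to -3 to 3. The column of knockout mTBI replicate 1 is paler than the other injured columns among the higher genes, with a median of log2 0.65 over all 33, and not among the lower genes.

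The higher genes had a median log2 change of 1.19 (range 0.42 to 8.16), beside 0.02 over all genes tested, and 22 of the 33 were over 2-fold. They comprised 29 protein-coding genes, 3 long intergenic RNAs and 1 unconfirmed transcript. The smallest p belonged to Epn3, an epsin that helps to form clathrin-coated pits and is known from epithelia. Epn3 (ENSMUSG00000010080, chromosome 11, 94489599 to 94499974, GRCm38) stood at 1.71, 1.71 and 1.47 CPM in sham, at 7.57, 9.84 and 8.74 in wild-type mTBI and at 6.41, 6.19 and 6.65 in knockout mTBI. The lowest injured library was far above the highest sham library, and the change was log2 2.20 (SE 0.15, adjusted p = 0.000104). Of the 21 endocytosis adaptors listed, Epn3 was the only one called, and 10 of the 21 changes were positive.

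Genes with secreted or signalling products followed. Sfrp5, a secreted antagonist of Wnt ligands, was at 0.363, 0.193 and 0.105 CPM in sham. Its levels were 3.31, 2.55 and 2.52 CPM in wild-type mTBI and 2.46, 2.17 and 2.13 CPM in knockout mTBI, and no injured library came near sham (11.2-fold, log2 3.49, SE 0.33, adjusted p = 0.000911). Sfrp5 was the only called gene of the 20 listed for the Wnt pathway, whose median change was log2 0.02. Within that list, the ligand gene Wnt7b (log2 -0.29, adjusted p = 0.113) and the receptor gene Fzd3 (log2 -0.34, adjusted p = 0.137) were not called. Pcp4l1, a small relative of the calmodulin-binding protein PCP4, was far more abundant. It stood at 43.8, 41.6 and 40.0 CPM in sham, at 84.3, 72.9 and 83.7 in wild-type mTBI and at 73.5, 63.9 and 65.3 in knockout mTBI (log2 0.82, SE 0.08, adjusted p = 0.000911). Pla2g5, a secreted phospholipase A2, was at 0.386 to 0.441 CPM in sham and at 1.54 to 4.36 CPM in the injured libraries (6.78-fold, adjusted p = 0.00292).

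Sfrp5 and Pcp4l1 were called in each genotype alone (Sfrp5: adjusted p = 0.00159 in wild type and 0.00345 in knockout, Pcp4l1: 0.00159 and 0.0107). Their promoter windows, 250 bases before to 50 bases after the RefSeq start (GRCm38.p6), are shown as examples of start regions of genes that moved in every injured library. Capitals mark the letters TATAAA on either strand, which 7.96% of 16882 such windows of tested genes hold. The Sfrp5 window is chr19:42202203-42202502 and the Pcp4l1 window chr1:171196219-171196518, both on the minus strand.
Sfrp5: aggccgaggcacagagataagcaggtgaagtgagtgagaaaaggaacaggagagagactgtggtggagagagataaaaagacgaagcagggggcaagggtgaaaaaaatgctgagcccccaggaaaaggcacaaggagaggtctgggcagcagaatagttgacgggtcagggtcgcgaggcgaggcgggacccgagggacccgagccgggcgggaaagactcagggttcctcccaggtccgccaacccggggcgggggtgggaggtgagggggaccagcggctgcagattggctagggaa
Pcp4l1: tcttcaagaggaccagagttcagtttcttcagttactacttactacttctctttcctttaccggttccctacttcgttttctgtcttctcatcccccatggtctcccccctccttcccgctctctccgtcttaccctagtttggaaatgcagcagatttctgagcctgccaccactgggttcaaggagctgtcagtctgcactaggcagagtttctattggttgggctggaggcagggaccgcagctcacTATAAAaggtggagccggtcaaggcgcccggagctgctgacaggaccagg
The Pcp4l1 window held the letters once, at base 251 from its 5′ end, which is the annotated start, and the Sfrp5 window did not hold them.

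**Figure D2:**
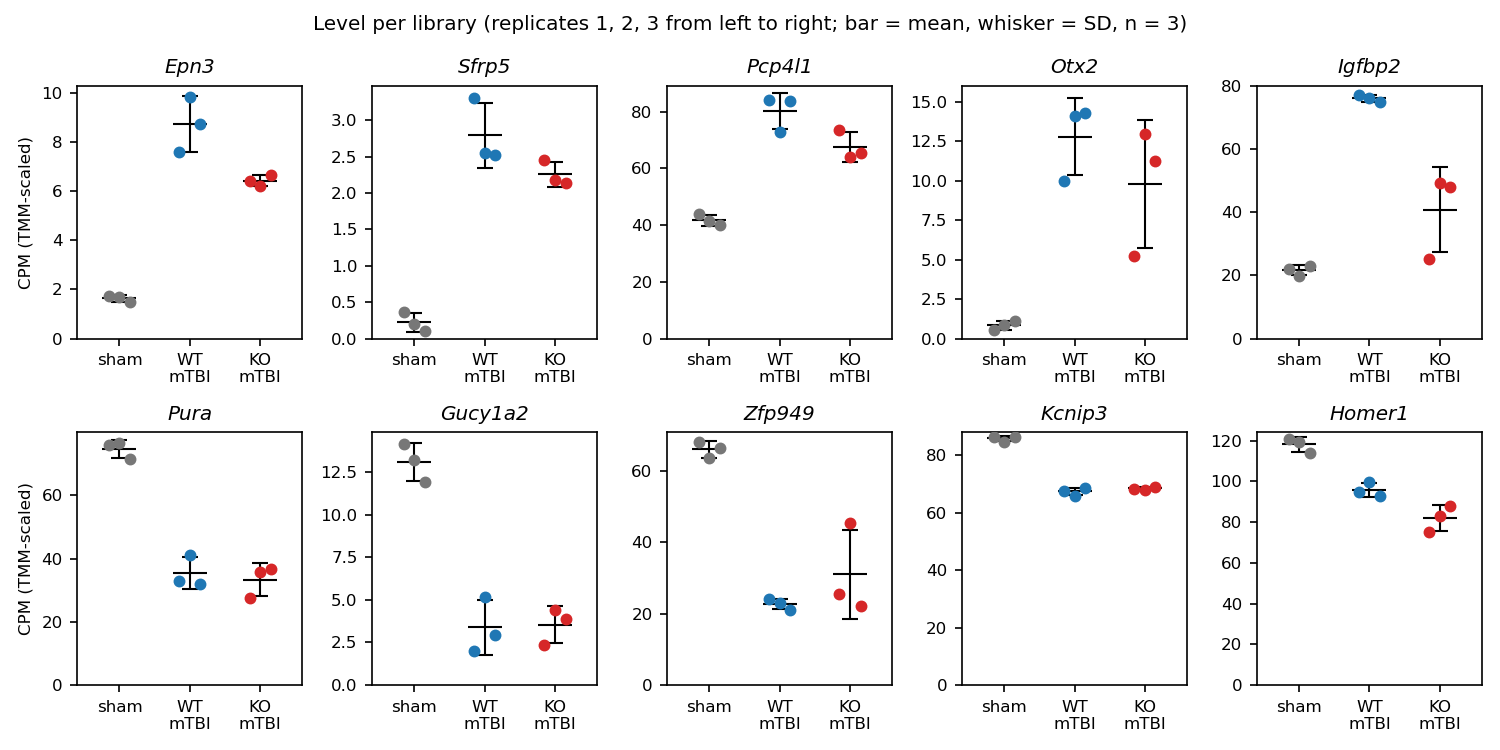
CPM (TMM-scaled, linear axes from 0) of 5 higher genes in the upper row and 5 lower genes in the lower row, with 1 point per library, the mean as a bar and the SD as a whisker (n = 3). Every injured point lies on 1 side of the sham points, and Otx2 and Igfbp2 have their lowest injured point in knockout mTBI replicate 1, at 5.23 and 25.3 CPM.

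Choroid plexus transcripts stood far above sham in 5 of the 6 injured libraries. Otx2, a homeobox regulator of that epithelium, was at 0.571, 0.827 and 1.10 CPM in sham, 9.95, 14.1 and 14.3 in wild-type mTBI, and 5.23, 12.9 and 11.3 in knockout mTBI. It was the only gene called among 10 choroid plexus markers (log2 3.75, SE 0.34, adjusted p = 0.000943). All 10 changes were positive (median log2 3.73), and 4 of the 10 had all injured libraries above sham, against 3.64% of all genes tested. Summed, the 10 markers stood at 224 to 226 CPM in sham and at 4105 to 6214 CPM in 5 injured libraries, but at 239 CPM in knockout mTBI replicate 1, and none of them was at 0 throughout. Ttr, the carrier of thyroid hormone in cerebrospinal fluid, was at 16.5 to 17.5 CPM in sham, at 2748 to 4113 CPM in 5 injured libraries and at 23.0 CPM in that replicate (log2 7.33, adjusted p = 0.175). The potassium channel gene Kcnj13 (log2 3.70, adjusted p = 0.124) and Enpp2, which encodes autotaxin (log2 2.76, adjusted p = 0.172), were likewise not called. Ependymal markers summed to 23.5 to 24.5 CPM in sham and 19.8 to 39.7 CPM after injury, again lowest in knockout mTBI replicate 1. The part of choroid plexus RNA in the changes of the higher genes was not tested.

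Knockout mTBI replicate 1 nevertheless lay above sham for each of the 33 higher genes, by a condition of their choice. It was the injured library of smallest change in 18 of them. In 13 its log2 change was under 50% of the mean change of the other 5 injured libraries, and in 13 it was at least 80%. Igfbp2, which binds insulin-like growth factors, is in the first set, with 22.1, 19.8 and 23.1 CPM in sham, 77.1, 76.1 and 75.0 in wild-type mTBI, and 25.3, 49.3 and 47.9 in knockout mTBI (log2 1.36, SE 0.19, adjusted p = 0.0211). Its change in knockout replicate 1 was 14.2% of that in the other libraries. Of the 13 listed genes of the IGF axis it was the only one called. Chosen after their values were seen, the retinol dehydrogenase gene Rdh5 (21.2%), the secreted semaphorin gene Sema3b (17.2%), the mitochondrial thiolase gene Acaa2 (14.5%), the kinase gene Stk39 (31.5%), Perp (38.1%), Tmem98 (42.9%), Tc2n (25.2%) and Gas6, a ligand of the TAM receptors (48.7%), were also in that set, as was Gm44250 (25.0%). The rule for named genes adds Serpinb1b (42.4%), an inhibitor of serine proteases, and Cdr2 (46.6%), an antigen of paraneoplastic cerebellar degeneration.

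In the set with a share of at least 80%, the change was nearly as large, or larger, in knockout mTBI replicate 1. That is the library whose choroid plexus markers stood near the level of sham in their sum, although not for Otx2. The shares rest on that single library, which lay above sham for every higher gene by choice. Whether choroid plexus RNA has a part in the shares was not tested. This set comprised Epn3 (87.3%), Sfrp5 (98.8%), Pcp4l1 (99.99%), Etnppl (159%), the phospholipid scramblase gene Plscr4 (91.2%) and, chosen after their values were seen, Tuba1c, Rnf152, Prkcd, Cyb5r4, Six3, C920006O11Rik, 9430037G07Rik and M5C1000I18Rik. Plscr4 was at 3.25 to 3.72 CPM in sham and at 6.68 to 9.33 CPM after injury (log2 1.16, adjusted p = 0.00792). Prkcd, the delta isoform of protein kinase C, rose from 34.7 ± 2.04 CPM (SD, n = 3) in sham to 73.3 ± 18 CPM in injured libraries (n = 6, adjusted p = 0.0244). It was the only called gene of 14 tested markers of tissue around the hippocampus, of which 12 had positive changes. Between the 2 sets lay Otx2 (64.2%), Pla2g5 (58.7%), the metalloreductase gene Steap2 (52.6%), Mcm6, a subunit of the replicative DNA helicase (71.9%), Cep63, which acts in centriole duplication (73.5%), Crb3, a determinant of apical cell polarity (75.0%), and the lysosomal protease gene Ctsh (61.2%), the last chosen after its value was seen. Mcm6 was at 5.40, 6.20 and 5.52 CPM in sham, 18.1, 10.7 and 16.7 in wild-type mTBI and 11.3, 11.8 and 17.3 in knockout mTBI, with no injured library near sham (log2 1.32, SE 0.19, adjusted p = 0.0211). Steap2 (log2 1.19), Crb3 (2.00), Cep63 (0.52), Cdr2 (0.97) and Serpinb1b (2.04) were called with adjusted p between 0.0138 and 0.0239.

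Among the higher genes, Tc2n and the long intergenic RNA 9430037G07Rik had 0 counts in all 3 sham libraries. Taking 3 counts per sham library as the floor, Tc2n was at least 10.6-fold higher and 9430037G07Rik at least 11.6-fold higher after injury. The injured libraries held 0.157 to 1.30 CPM of Tc2n and 0.563 to 1.44 CPM of 9430037G07Rik, so both stayed scarce.

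The lower genes changed less. Their median was log2 -0.70 (range -4.46 to -0.34), and 11 of the 29 were over 2-fold lower. They comprised 20 protein-coding genes, 5 unconfirmed transcripts, 1 long intergenic RNA and 3 others. Pura, a protein that binds single-stranded nucleic acids and is needed for neuronal development, had the smallest p (ENSMUSG00000043991, chromosome 18, 36281097 to 36292535). It was at 75.9, 76.6 and 71.5 CPM in sham, 32.8, 41.2 and 32.0 in wild-type mTBI and 27.5, 35.8 and 36.8 in knockout mTBI (2.18-fold lower, log2 -1.12, SE 0.10, adjusted p = 0.000911). All 6 injured libraries lay well under the lowest sham library. Gucy1a2, a subunit of the guanylate cyclase that senses nitric oxide, fell from 14.2, 13.2 and 11.9 CPM in sham to 2.03, 5.15 and 2.96 in wild-type mTBI and 2.33, 4.43 and 3.90 in knockout mTBI (log2 -1.92, SE 0.25, adjusted p = 0.0116). Crhbp, which binds corticotropin-releasing hormone, was at 23.7 to 25.4 CPM in sham and 13.1 to 17.5 CPM after injury (log2 -0.72, adjusted p = 0.0219).

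A further 4 of the named lower genes act at synapses or with potassium channels. Homer1, a postsynaptic scaffold that links metabotropic glutamate receptors to calcium stores, was at 121, 119 and 114 CPM in sham, 95, 99.6 and 92.9 in wild-type mTBI, and 75.3, 83.2 and 87.7 in knockout mTBI (log2 -0.41, SE 0.06, adjusted p = 0.0239). The counts do not separate its long form from the short, activity-induced Homer1a. Grm3, a metabotropic glutamate receptor, was at 41.3 to 44.0 CPM in sham and 28.0 to 34.5 CPM after injury (log2 -0.44, adjusted p = 0.0239). Kcnip3, a calcium sensor that binds Kv4 potassium channels, varied little within groups, with 84.8 to 86.5 CPM in sham and 66.0 to 69.0 CPM in all 6 injured libraries (log2 -0.34, SE 0.05, adjusted p = 0.0239). Kcnh7, a potassium channel of the erg family, was at 69.3 to 73.6 CPM in sham and 50.9 to 60.1 CPM after injury (log2 -0.41, adjusted p = 0.0253).

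Several lower genes have a large summed exon length. Nbeal1, a BEACH-domain protein, and Lrp1b, an endocytic receptor of the LDL receptor family, each changed by log2 -0.50 (adjusted p = 0.0305 and 0.036). Lrp1b was at 77.5, 84.1 and 77.4 CPM in sham, 44.8, 59.2 and 49.9 in wild-type mTBI and 56.7, 65.0 and 63.8 in knockout mTBI, with the lowest level in wild-type mTBI replicate 1. Esyt2, a tether between the endoplasmic reticulum and the plasma membrane, Ccdc88a, the actin-binding protein girdin, and Scai, a repressor of transcription by serum response factor and its actin-regulated coactivator, changed by log2 -0.40, -0.43 and -0.42 (adjusted p = 0.0344, 0.0349 and 0.0239). Mmp16, a membrane-bound metalloproteinase, was at 32.5 to 34.7 CPM in sham and 12.4 to 22.3 CPM after injury (log2 -0.96, adjusted p = 0.0344). Of the lower genes outside the naming rule, chosen after their values were seen, Adamts7 (log2 -1.36), the transcription factor gene Onecut2 (log2 -0.55) and Gh, the growth hormone gene, were called. Gh was barely detected: 0.367 to 0.551 CPM in sham and at most 0.0514 CPM after injury. Large falls were also seen in the unconfirmed transcripts Gm44846 (7.12 ± 1.07 CPM in sham, n = 3, 0.527 ± 0.268 after injury, n = 6) and Gm38372 (4.65 ± 0.795 against 0.239 ± 0.211), and in the pseudogene Gm7049 (2.68 ± 0.600 against 0.269 ± 0.409), whose reads could in part belong to its parent gene.

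The other genes of these pathways gave few calls. Of 25 postsynaptic glutamate genes, 22 had negative changes, the median was log2 -0.14 (-0.32 in wild-type mTBI replicate 1 and -0.18 to -0.04 in the other 5 injured libraries), 8 had all injured libraries below sham (against 3.99% of all genes tested) and only Homer1 was called. Nlgn1, a postsynaptic adhesion gene (log2 -0.26, adjusted p = 0.196), and Grin2a, an NMDA receptor subunit (log2 -0.28, adjusted p = 0.269), were not. Of 24 voltage-gated channel genes, 20 had negative changes with a median of log2 -0.13, 6 lay entirely below sham and only Kcnh7 was called. That shift lay mostly in wild-type mTBI replicate 1, with a median of log2 -0.55 beside -0.14 to -0.02 in the other 5. Kcnq3 (log2 -0.29, adjusted p = 0.248) and Cacna1e (log2 -0.35, adjusted p = 0.304) were not called. None of 18 protocadherin genes was called, with a median of log2 -0.18 and 16 negative changes. Here too wild-type mTBI replicate 1 was lowest, with a median of log2 -0.44 beside -0.25 to -0.09. The closest was Pcdh19 (log2 -0.36, adjusted p = 0.0567). Levels of the neuron markers overlapped between injured and sham libraries for all 8 genes (median log2 -0.06).

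On the positive side, none of 26 lysosomal genes was called, although 22 changes were positive (median log2 0.09) and 6 lay entirely above sham, against 3.64% of all genes tested. Ctsl (log2 0.32, adjusted p = 0.113) and Ctsd (log2 0.42, adjusted p = 0.122) encode lysosomal proteases. Genes induced by glucocorticoids had a median of log2 0.46, with 12 of 13 changes positive, 5 entirely above sham and 0 called. By library, their median was log2 0.88 in knockout mTBI replicate 2 and 0.11 to 0.41 in the other 5 injured libraries. Per1 was at 73.7 to 75.0 CPM in sham and 87.5 to 108 CPM after injury (log2 0.38, adjusted p = 0.0584), and Tsc22d3 at 42.4 to 43.4 against 53.2 to 82.0 CPM (log2 0.57, adjusted p = 0.13). Sgk1 reached 155 CPM in knockout mTBI replicate 2, against 61.1 to 90.5 CPM in the other injured libraries and 46.9 to 48.1 CPM in sham. All 48 nuclear genes of the respiratory chain and 41 of 44 cytosolic ribosomal protein genes had positive changes, with medians of log2 0.14 and 0.16 and 0 called. Both shifts lay mostly in wild-type mTBI replicate 1, where the medians were log2 0.57 and 0.55, beside -0.01 to 0.09 and 0.02 to 0.09 in the other 5 injured libraries. Of 17 BMP pathway genes 0 were called. The receptor genes Bmpr2 (log2 -0.37, adjusted p = 0.0584) and Bmpr1b (log2 0.42, adjusted p = 0.0887) went opposite ways.

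Classical injury and inflammation genes gave no shared change past the threshold apart from Homer1. Of 21 immediate early genes, Homer1 was the only one called, and the median was log2 0.14. The counts of Homer1 do not separate its short, activity-induced form, so the change of that form was not measured. Bdnf (log2 -0.38, adjusted p = 0.23) was not called. Nr4a2 was at 51.8 to 55.7 CPM in sham, 53.4 to 54.0 in wild-type mTBI and 37.2 to 39.4 in knockout mTBI, so that only the knockout libraries stood below sham (adjusted p = 0.0198 in the knockout alone and 0.104 in the mean). None of 14 interferon-stimulated, 10 tested cytokine and NF-kB, 12 reactive astrocyte, 8 astrocyte, 8 microglial or 8 oligodendrocyte genes was called by edgeR, with 3, 1, 2, 4, 0 and 0 at an unadjusted p under 0.05. Their median changes were log2 0.04, 0.06, 0.00, -0.14, 0.04 and 0.09. Among astrocyte genes, Slc1a2, the main glutamate transporter, lay below sham in each injured library (log2 -0.25, adjusted p = 0.283) and Aldh1l1 above (log2 0.26, adjusted p = 0.201).

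Each genotype was then set against sham on its own. The median over the higher genes was log2 1.26 in wild type and 1.24 in knockout, and over the lower genes -0.76 and -0.62. The comparisons share the sham libraries and chose these genes, so the likeness of their values is no separate evidence. Of all genes tested, 60 were called in wild-type mTBI against sham (0.3%) and 14 in knockout mTBI against sham (0.0699%). Of the 33 higher genes, 30 were called in wild-type mTBI against sham and 10 in knockout mTBI against sham. The 8 called in both are part of each of these numbers, and 1 was called in neither. Of the 29 lower genes these numbers were 16, 3, 2 and 12, and all 62 had an unadjusted p under 0.05 in each (13.3% and 7.15% of all genes tested). The direct test of knockout against wild type after injury called 3 of all genes tested (0.015%) and 1 of the 62. That gene was Etnppl, an ethanolamine-phosphate lyase found in astrocytes. Etnppl was at 12.4, 12.7 and 13.4 CPM in sham, 19.1, 17.9 and 16.9 in wild-type mTBI and 34.9, 40.5 and 34.6 in knockout mTBI. All injured libraries were above sham and all knockout libraries above all wild-type ones, by log2 1.03 (95% interval 0.82 to 1.24, adjusted p = 0.00411).

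For the other 61 genes the direct test gave no call, with 11 other higher and 5 lower genes at an unadjusted p under 0.05 (6.64% of all genes tested), and several intervals were wide. The change was smaller in size in knockout than in wild type for 26 of 33 higher and 21 of 29 lower genes. Among the next smallest p-values were those of Igfbp2 (log2 -0.90, 95% interval -1.34 to -0.45), Serpinb1b (-1.11, -1.70 to -0.52) and Acaa2 (-0.38, -0.64 to -0.12), each with an adjusted p of 0.731. In these 3 the lowest injured level was in knockout mTBI replicate 1, the library whose summed choroid plexus markers stood near the level of sham. A link between the 2 was not tested. For Pura the interval was -0.35 to 0.19, for Kcnip3 -0.11 to 0.16 and for Otx2 -1.03 to 0.27.

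**Figure D3:**
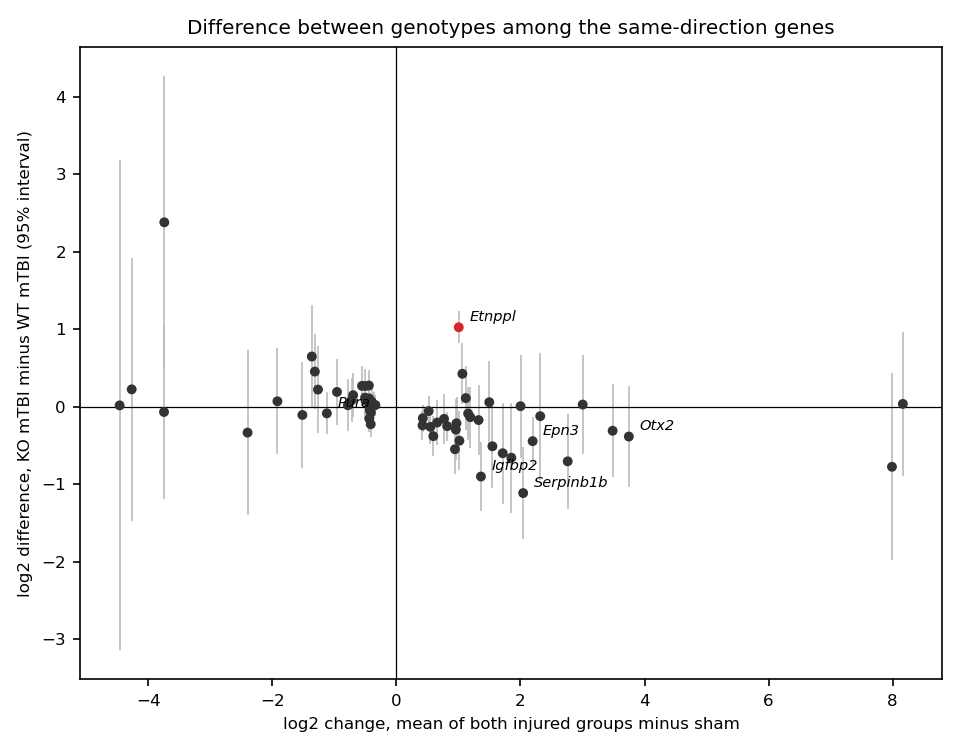
Each point is 1 of the 62 genes: the horizontal axis gives its log2 change in the mean of both injured groups from sham, and the vertical axis the log2 difference of knockout from wild-type mTBI with its 95% interval. Etnppl (red) is the only gene called for the vertical difference, at 1.03.

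Higher and lower genes differed in exon length, a property that the choice of genes did not use directly. They also differed in level, with a median of 32.5 CPM in the lower genes, 9.34 in the higher genes and 11.2 over all genes tested. The median summed exon length was 6650 bases in the 29 lower genes and 3767 in the 33 higher genes, beside 3640 over all genes tested. Among protein-coding genes only, the medians were 8905 bases for lower genes, 4067 for higher genes and 4378 for all tested. Over the non-overlapping genes the same held: 6567.5 bases in the 799 below sham and 3709.5 in the 730 above. In 5 groups of equal size by exon length, the share of genes with all injured libraries below sham was 1.75%, 2.35%, 2.75%, 3.37% and 9.72% from shortest to longest. The share above sham was 2.65%, 4.30%, 4.45%, 4.42% and 2.42%. Lower genes of the set had 14 of 29 members in the longest group. Among genes of at least 10 CPM on average the share below ran from 0.312% to 11%, and above from 5.45% to 2.15%. Wild-type mTBI replicate 1 leaned the most with length, with a median of log2 -0.21 in the longest group against -0.01 to -0.02 in the other injured libraries. Without it, the share below sham was 2.75% in the shortest group and 10.5% in the longest. The share above was then 3.10%, 4.77%, 5.45%, 6.27% and 5.40% from shortest to longest.

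**Figure D4:**
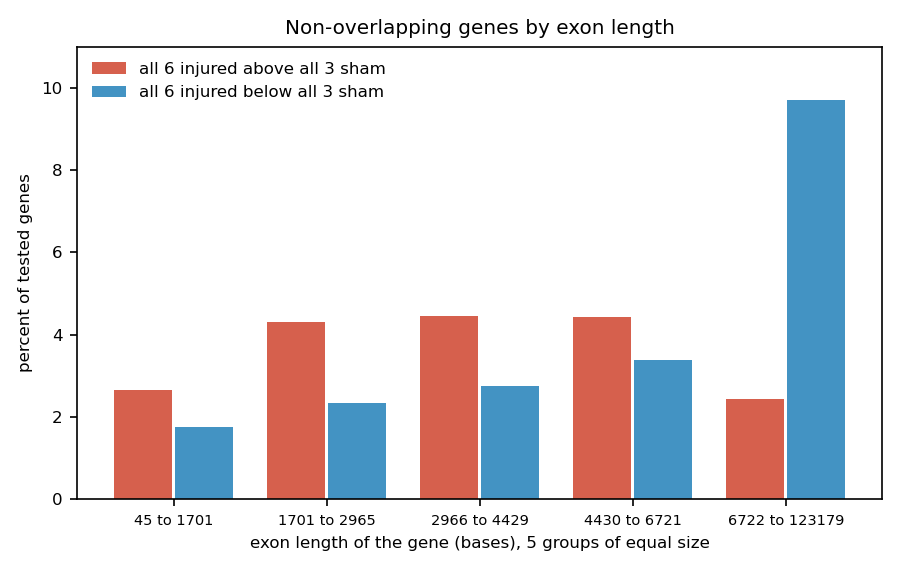
Percent of tested genes with all 6 injured libraries above (red) or below (blue) all 3 sham libraries, in 5 groups of equal size by exon length in bases. The share below reaches 9.72% in the longest group.

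The genes were also unevenly placed. Chromosome 9 held 12 of the 62 (9 higher and 3 lower), or 19.4%, although it holds 5.70% of the genes tested. Between 80 and 100 Mb of chromosome 9, a stretch chosen after its values were seen, 7 of 123 tested genes belonged to the set, 5 higher and 2 lower. Among them were the higher genes Cyb5r4, 9430037G07Rik, Ctsh and Plscr4 and the lower genes Zfp949 and Adamts7. All injured libraries lay on 1 side of sham for 31 of the 123 genes (25.2%), 11 above and 20 below. That share was 8.84% on the rest of chromosome 9 and 7.52% on the rest of the genome. Of 202 windows of 10 Mb with at least 40 tested genes, the highest shares were on chromosome 1 at 120 to 130 Mb (27.5%) and on chromosome 9 at 80 to 90 Mb (27.4%) and 90 to 100 Mb (23.0%).

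Zfp949 and 9430037G07Rik are neighbours in that stretch that changed in opposite directions. Zfp949 encodes a zinc finger protein (chromosome 9, 88548020 to 88571061, plus strand). It was at 68.1, 63.6 and 66.5 CPM in sham, 24.0, 22.9 and 21.1 in wild-type mTBI, and 25.6, 45.4 and 22.2 in knockout mTBI (log2 -1.31, SE 0.18, adjusted p = 0.0211). The noncoding 9430037G07Rik (88595325 to 88599516, minus strand) had 0 counts in sham and 0.563 to 1.44 CPM in every injured library (adjusted p = 0.00775). The promoter windows of the pair, chr9:88547770-88548069 on the plus strand and chr9:88599194-88599493 on the minus strand (RefSeq, GRCm38.p6), are shown because the genes lie side by side, with TATAAA in capitals as above.
Zfp949: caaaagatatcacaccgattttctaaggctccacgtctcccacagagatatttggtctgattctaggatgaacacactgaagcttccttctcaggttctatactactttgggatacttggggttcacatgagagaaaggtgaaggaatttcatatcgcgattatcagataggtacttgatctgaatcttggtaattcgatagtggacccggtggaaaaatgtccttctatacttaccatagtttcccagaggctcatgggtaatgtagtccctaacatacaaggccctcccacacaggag
9430037G07Rik: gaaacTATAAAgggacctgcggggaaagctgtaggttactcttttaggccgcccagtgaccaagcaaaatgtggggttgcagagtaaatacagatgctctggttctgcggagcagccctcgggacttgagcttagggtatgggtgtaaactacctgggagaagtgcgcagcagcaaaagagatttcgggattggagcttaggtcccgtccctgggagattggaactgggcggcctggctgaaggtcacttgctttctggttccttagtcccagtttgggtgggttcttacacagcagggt
The letters were found once in the window of 9430037G07Rik, at base 6 from its 5′ end, and not in that of Zfp949. That base is far from the RefSeq start on which the window was set. The gene bounds given above, from GENCODE, end at 88599516, just outside the 5′ end of the window. Of the 33 higher genes, 26 had a window, and 6 of their 37 windows held the letters. Of the lower genes, 13 had a window, and 1 of 16 windows held them.

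**Figure D5:**
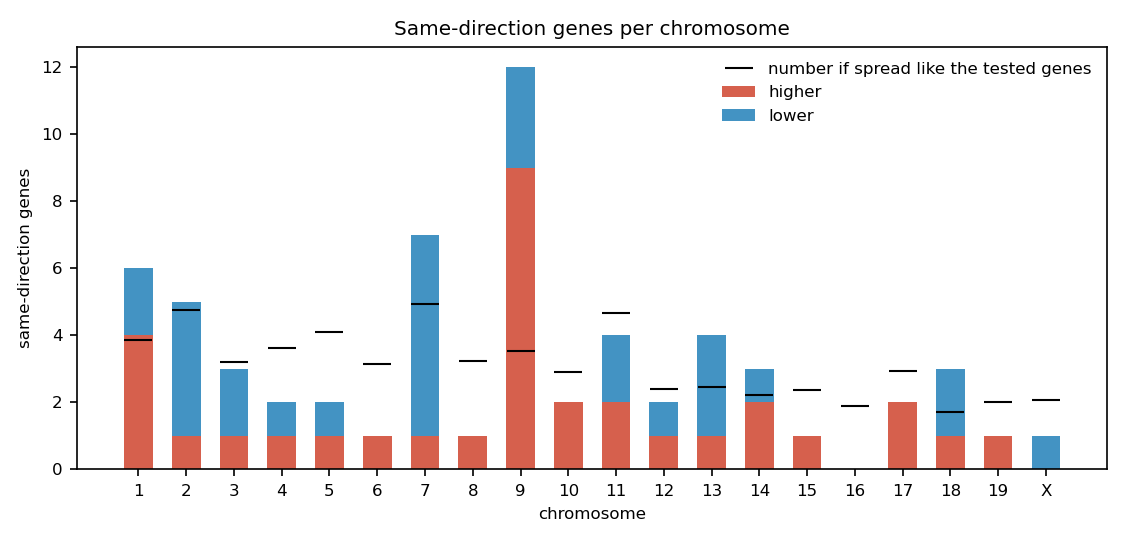
Number of higher (red) and lower (blue) genes of the set on each chromosome, with a line at the number that a spread like that of the 20032 tested genes would give. Chromosome 9 holds 12 genes.

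Chromosome 7 held 7 genes of the set (11.3%, beside 7.97% of the genes tested), and 7.39% of its tested genes lay wholly on 1 side of sham, beside 7.63% over all. Of the 7, 1 was higher and 6 lower, in part at imprinted loci, where only the copy from 1 parent is expressed. Ube3a, a ubiquitin ligase gene that neurons express from the maternal copy, was at 92.7 to 94.8 CPM in sham and 68.3 to 79.3 CPM after injury (log2 -0.36, adjusted p = 0.0479). The unconfirmed transcript 9330162G02Rik overlaps Ube3a on the other strand (59223847 to 59254788) and was at 44.2 to 45.7 against 27.3 to 39.8 CPM. Gm38393 lies near by (59974149 to 60005064), at 12.1 to 14 against 6.25 to 9.14 CPM. Kcnq1ot1, the imprinted antisense RNA of Kcnq1, was at 39.7 to 41.3 CPM in sham and 24.4 to 32.9 CPM after injury (log2 -0.50, adjusted p = 0.0495). The counts ignored strand, so reads of Ube3a and of RNAs antisense to it, or of Kcnq1ot1 and Kcnq1, cannot be told apart. These genes, which fall outside the naming rule, were chosen after their values were seen.

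The threshold cut through a continuous range of values. Just inside it were Kcnq1ot1, Tmem98 (log2 0.66, adjusted p = 0.0479) and Ube3a. Just outside lay Cd63, a tetraspanin of late endosomes and exosomes, at 36.6 to 38.9 CPM in sham, 52.6 to 58.5 in wild-type mTBI and 41.4 to 42.8 in knockout mTBI (log2 0.35, adjusted p = 0.0501). Snhg14, the host RNA that reaches across the Ube3a locus (log2 -0.50, adjusted p = 0.0501), 1700087I21Rik (log2 0.79, adjusted p = 0.0511), Ankdd1a (log2 -0.91, adjusted p = 0.053) and Smim1 (log2 0.74, adjusted p = 0.0536) came next. In all 5 the injured libraries lay wholly on 1 side of sham, which was a condition of their choice.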

How the data were processed

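RNA was sequenced from 9 libraries of sorted mouse hippocampal cells (3 per group). The authors deposited raw counts per Ensembl gene, made per the file headers with featureCounts 2.0.6 over exons of Ensembl release 98 (GRCm38). Per the submitters' processing notes, HISAT2, SAMtools, Trim Galore, FastQC and MultiQC were used, with genome mm10. The command in the header has no option for read pairs, strand or multi-mapping reads, so mates were counted singly and strand was ignored. Positions, types and exon lengths came from GENCODE M21, which matched 55240 of 55421 genes.

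Genes were filtered with filterByExpr, scaled with TMM and tested with edgeR 4.0.16 in R 4.3.3 (quasi-likelihood F test, robust, two-sided). The fit held 3 group means over 9 libraries, with 6 residual degrees of freedom and a biological coefficient of variation of 15.3%. The contrast was the mean of both injured groups minus sham, with Benjamini-Hochberg adjustment over 20032 genes and calls at 0.05. A same-direction gene was called and had all 6 injured libraries beyond all 3 sham libraries in TMM-scaled CPM. Levels are CPM, and the log2 changes are those of the fit unless given for a single library, where 0.5 CPM was added. The test was tested on simulated data.

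Named were Tmsb4x, Tmsb10, Xist and Ddx3y, the 15 higher and 15 lower same-direction genes of smallest p (mean count of at least 20, no predicted gene, RIKEN clone or pseudogene), up to 3 genes of each list, the 5 of smallest p between genotypes and the 5 that missed the threshold most narrowly without overlap. The genes and lists were chosen with earlier results of these data known. Lists are described by counts and medians only. Results of 2 genes are counted but not reported by name here.

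Alternatives were other scalings, DESeq2 1.42.0, limma 3.58.1 voom with weights, other count filters, genotype ignored, a replicate block, a fold minimum of 1.2, counts divided by 2, summed sham libraries and libraries left out. A prior without robust estimation, DESeq2 on summed sham libraries and the subsets by length were added after the data were seen. Refits that leave out libraries kept the genes tested.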

Additional observations from a re-analysis of the deposited data

Results flagged for a closer look

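A check of 90 named genes for a single injured library apart from the other 5 (Dixon's test for 6 values) marked 10, where chance marks about 1 in 20 groups. Knockout mTBI replicate 2 accounts for 5 of them. There Zfp949 was at 45.4 CPM (others 21.1 to 25.6), Gm7049 at 1.10 CPM (0.0498 to 0.154), C230004F18Rik at 112 CPM (75.2 to 85.6), Tuba1c at 14.8 CPM (25.9 to 31.8) and Sgk1 at 155 CPM (61.1 to 90.5). For the first 4 this library was the injured one nearest to sham. Wild-type mTBI replicate 1 stood apart for Sfrp5, at 3.31 CPM (others 2.13 to 2.55), for Gm26871, at 1.28 CPM (2.43 to 2.91), and for Cyb5r4, at 38.3 CPM (25.8 to 30.2), and was each time the farthest from sham. Wild-type mTBI replicate 2 had 60.1 CPM of Kcnh7 (others 50.9 to 54.2). Knockout mTBI replicate 1 had 23.0 CPM of Ttr (others 2748 to 4113).

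The level after injury differed between genotypes by the direct edgeR test for Etnppl, by log2 1.03 (knockout minus wild type, adjusted p = 0.00411, all 3 knockout libraries above all 3 wild-type libraries), and for the deleted gene Tmsb4x, by log2 -7.88 (adjusted p = 0.00423, all 3 below).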

How the results depend on the processing

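None of the 62 genes turned direction under the alternatives run, but the balance of higher and lower genes did: more lower than higher genes of the same direction were found without wild-type mTBI replicate 1 (104 higher, 127 lower) or 2 (48 and 70), with genotype ignored (19 and 23) and with both voom fits. Numbers below are genes called higher and lower, then those of the same direction. The main values were 34 and 29, then 33 and 29. RLE factors, library totals, counts divided by 2, the stricter filter and a direction held against the sham mean kept all 4 counts within 1.5 times. Larger numbers came from DESeq2 (319 and 166, then 204 and 154), voom with sample weights (579 and 503, then 326 and 369), voom with 1 weight per group (307 and 249, then 228 and 231) and no count filter (150 and 115, then 118 and 111). Ignoring genotype moved the higher genes to 19, and 19 of the same direction. A fold minimum of 1.2 left 17 and 7, then 16 and 7. Leaving out 1 library at a time gave 8 to 205 called higher and 2 to 129 called lower, and 8 to 202 and 2 to 127 of the same direction. With the injured libraries numbered 1 of both genotypes left out the numbers were 445 and 240, then 434 and 231. With the sham libraries summed, edgeR called 0 and 0, then 0 and 0, with 387 genes at an unadjusted p under 0.05 and a smallest adjusted p of 0.0872, and DESeq2 called 6 lower genes, also 6 of the same direction, beside 29 and 27 higher. Of the 62 genes, 27 were called in that DESeq2 fit. A prior that was not robust, added after the data were seen, gave 52 higher genes. The leave-one-out fits differ from the main fit in sample number and in which library is left out. The cause of the differences was not tested for any setting.

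Replicate numbers did not pair the samples: the correlations of deviations between same-numbered libraries lay between -0.085 and 0.089. The replicate block gave 50 and 35, then 44 and 35. Depth was even among the libraries. Whether the spread among libraries or the counts limit most genes was not tested, whereas Gh, Gm7049, Tc2n and 9430037G07Rik rest on few counts.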
